A study of Cucumis melo with 4 samples.

Results

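The genes described here are the redox and oxidative stress genes among those assigned to a binding site of CmNOR, a melon (Cucumis melo) transcription factor of the NAC family. The rule for members used annotation and no peak value, but it was chosen with earlier results of these data known. A gene entered the list if one of its Gene Ontology (GO) names held peroxidase, oxidative stress, hydrogen peroxide, superoxide, glutathione, cell redox homeostasis or thioredoxin, and left it if another held defense response, abscisic, auxin or jasmon. This gave 52 genes with 60 peaks, out of 4510 genes with 5493 peaks in the whole table, of which 3406 genes with 4107 peaks carry a GO term. Of the 56 genes that matched a keyword, 4 were dropped for a defense or hormone name.

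The binding sites were mapped with DAP-seq (DNA affinity purification sequencing). Fragments of naked genomic DNA are passed over a bacterially expressed protein, and those it holds back are sequenced. The study has 4 libraries, 2 made with the fusion protein MBP-His-CmNOR and 2 negative controls made with the MBP-His tag (maltose-binding protein and a His tag) without CmNOR. All 4 used melon genomic DNA and protein expressed in E. coli, so no cells or tissue were measured, and native chromatin was not part of the assay. The deposited values are 1 list for the whole series that gives, for each peak, the coordinates, the width in bp, an assigned gene, the distance to the start of that gene and a location class. It has no column per library and no count, enrichment or p-value per peak, so the depth is unknown, CmNOR was not compared with the tag, and no value below carries a replicate error. Positions are those of the list, whose genome build was not given in the sources used here. Genes are named by identifier and by their GO terms, since 0 of the 4510 identifiers matched the gene table at hand. No sequence of the sites is shown because no genome of the build was used here.

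Plant cells make superoxide and hydrogen peroxide during respiration, photosynthesis and growth, and use them both as signals and as substrates. Superoxide dismutases turn superoxide into hydrogen peroxide, which catalases and several families of peroxidases then remove. Secreted heme peroxidases also use hydrogen peroxide to cross-link or loosen the cell wall, while glutathione and thioredoxins carry the reducing power that keeps protein thiols reduced. Oxidative metabolism is known to change as fleshy fruits ripen.

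The list was sorted by role from the GO names. The largest roles were thioredoxin and cell redox homeostasis, with 18 genes and 23 peaks, and peroxidase, with 15 genes and 16 peaks. Glutathione metabolism held 7 genes with 9 peaks, and glutathione peroxidase held 3 genes with 3 peaks. The catalase and ascorbate peroxidase role held 2 genes, superoxide dismutase 2 genes and other oxidative stress annotations 5 genes. No member was named as a peroxiredoxin. Some members hold a keyword without being antioxidant enzymes themselves, such as MELO3C008017.2, a ribonucleotide reductase gene whose GO name lists thioredoxin as its acceptor. In the peroxidase role, MELO3C025712.2 and MELO3C026754.2 also carry terms for calcium binding and oxidation of NAD(P)H by oxygen, a reaction that makes superoxide. Both are counted in the values given for all 15 peroxidase genes.

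Peaks of the peroxidase genes lay within 5189 bp of the gene start, and those of the thioredoxin and redox homeostasis genes were spread over a far wider range. Distances are taken between the gene start and the nearest edge of the peak. Their median was 1195.5 bp for the 16 peroxidase peaks (95% exact order-statistic interval 591 to 2519) and 4276 bp for the 23 thioredoxin and redox homeostasis peaks (1785 to 15095). These intervals overlap, and the difference was not tested. Over all 60 redox peaks the median was 2305.5 bp (1753 to 3854), and over all 4107 peaks of GO-annotated genes it was 3797 bp (3631 to 4042). These intervals, and those given for shares, cover counting error only. The median intervals treat peaks as independent, although several can belong to 1 gene. In the thioredoxin and redox homeostasis role 3 of the 18 genes had 2 or more peaks, beside 1 of the 15 peroxidase genes. Of these 3, MELO3C014909.2 and MELO3C023932.2 had distal peaks alone, so single genes weigh more than once in the 4276 bp.

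**Figure D1:**
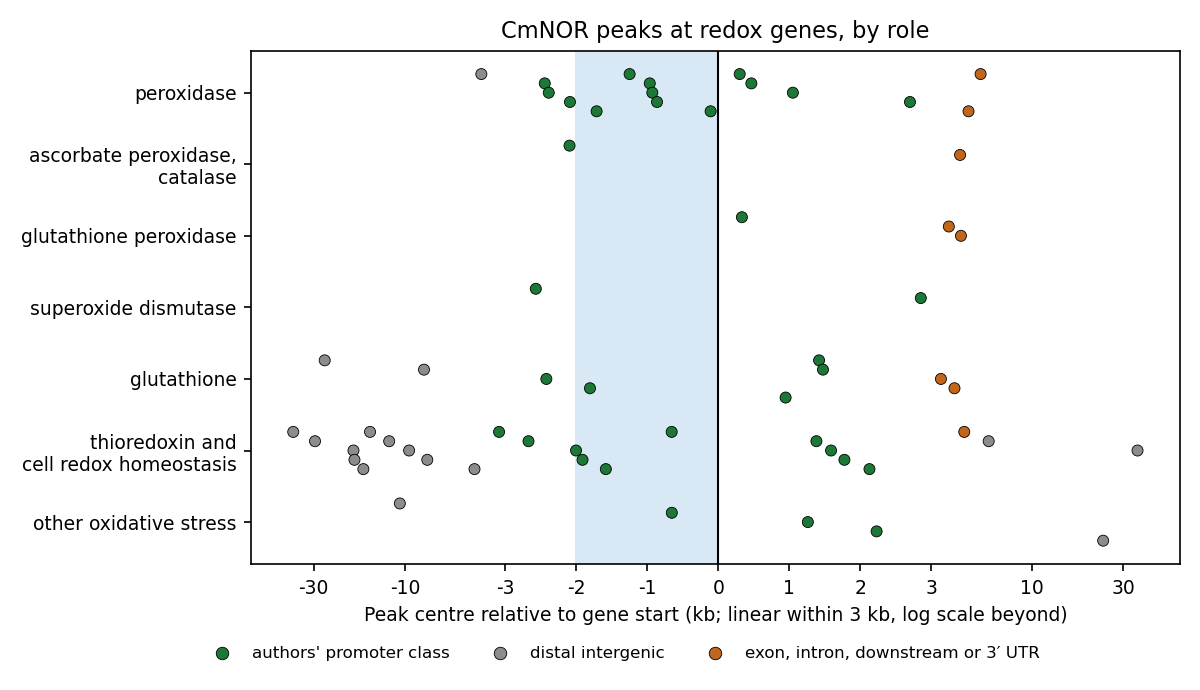
Position of each of the 60 peak centres relative to the start of its assigned gene (x axis, kb, negative values upstream, linear within 3 kb and logarithmic beyond), by role of the gene. Each point is 1 peak, coloured by the authors' location class, and the shaded band is the 2 kb upstream. The peroxidase point farthest from its gene start is at 5423.5 bp, while 11 of the 60 points lie more than 10 kb away.

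Among the genes of the peroxidase role, 6 of 15 had an upstream peak, here meaning a centre no more than 2 kb before the gene start. This is 40.0% (95% exact Clopper-Pearson interval 16.3 to 67.7), where the share over all GO-annotated genes was 17.8%. In the whole redox list it was 11 of 52, or 21.2% (11.1 to 34.7), so 6 of those 11 genes were peroxidases. In the authors' promoter class, which takes in every peak within 3 kb of a gene start on either side, 12 of the 15 peroxidase genes had a peak (80.0%, 51.9 to 95.7), against 49.0% of all GO-annotated genes. A distal intergenic peak stood at 1 of the 15, or 6.67% (0.169 to 31.9), against 40.9%. As 14 of the 15 genes had 1 peak, this share largely follows from the promoter-class share. The catalase, ascorbate peroxidase and glutathione peroxidase genes also hold the keyword peroxidase but form other roles. In the first of these roles 0 of 2 genes had an upstream peak and 1 of 2 a promoter-class peak. In the glutathione peroxidase role it was 0 of 3 and 1 of 3, so both shares are lower over all genes with that keyword. No test was made of these shares, and the roles were set with earlier results of these data known.

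Heme binding together with hydrogen peroxide breakdown was annotated in 10 of the 15 genes, 8 of which also carry the term extracellular region. Of these 10, 4 had an upstream peak and 8 a promoter-class peak. MELO3C009924.2 had a 547 bp peak at 28103846 to 28104392 of chromosome 4, 591 bp before its gene at 28104983 to 28106495. MELO3C003628.2, an extracellular peroxidase gene, had a 435 bp peak at 2840432 to 2840866 of chromosome 4, 713 bp before the start. The extracellular peroxidase gene MELO3C021373.2 had a 471 bp peak on chromosome 11 at 29959238 to 29959708, 731 bp upstream. MELO3C009329.2, also extracellular, had its peak 907 bp upstream on chromosome 4 at 32846035 to 32846721, and at 687 bp this was the widest peak of any redox gene.

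In 3 further heme peroxidase genes the peaks lay within the gene, and in 1 it was distal. MELO3C023613.2, on chromosome 1 and 1974 bp long, held a pair of narrow peaks of 331 and 335 bp, whose edges lay 136 and 883 bp downstream of the start and which were 416 bp apart. The extracellular peroxidase gene MELO3C031049.2 on chromosome 5 had a 325 bp peak 303 bp inside. MELO3C007923.2 on chromosome 8, a membrane protein gene with heme binding but no hydrogen peroxide breakdown term, had a 362 bp peak 2519 bp from its start, still within the gene. MELO3C010344.2 on chromosome 2 had a distal peak 3854 bp upstream.

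Neighbouring peroxidase genes on chromosome 3 carried peaks at nearly the same place. MELO3C008185.2 and MELO3C008186.2 lie on the same strand with 15408 bp between them, are 3170 and 3144 bp long, and have the same GO terms. Their peaks began 2218 and 2233 bp upstream, a difference of 15 bp, and were 343 and 426 bp wide. The peaks are separate intervals, at 1688219 to 1688561 and at 1706786 to 1707211, and each was the other's nearest neighbour in the list. Whether reads could be shared between these genes in the authors' alignment was not tested.

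Peaks also stood at the remaining genes of the peroxidase role. MELO3C019603.2, annotated with peroxidase activity and no other term, was the 1 redox gene with a peak over its start, on chromosome 11 at 25821739 to 25822259, against 4.37% of all GO-annotated genes with such a peak. MELO3C003396.2 on chromosome 4, with the same single term, had one centred 1715 bp upstream. Of the genes that add calcium binding and oxidation of NAD(P)H by oxygen, the reaction by which plant cells make superoxide at the plasma membrane, MELO3C025712.2 on chromosome 11 had one 1906 bp upstream and MELO3C026754.2 on chromosome 4 had one in intron 7 of 8. The peak assigned to MELO3C021259.2 on chromosome 11 lay 5189 bp past its start and beyond its end, in intron 11 of 17 of the neighbouring gene MELO3C021258.2.

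**Figure D2:**
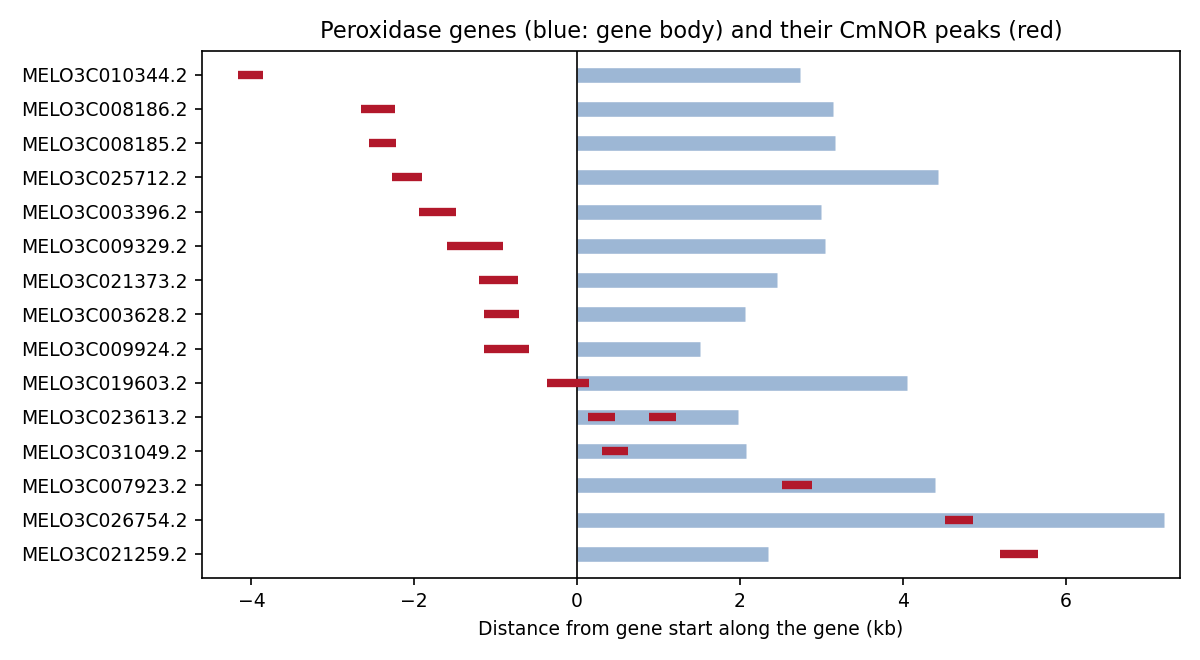
The 15 genes of the peroxidase role aligned at their start (x axis, kb along the gene, negative values upstream), with the gene body as a blue bar and each CmNOR peak as a red bar drawn to width. The peaks of 4 genes lie 591 to 907 bp upstream, MELO3C008185.2 and MELO3C008186.2 have theirs at 2218 and 2233 bp, and 1 gene, MELO3C023613.2, has 2 peaks.

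The catalase, ascorbate peroxidase and superoxide dismutase genes had peaks 1852 to 4008 bp from their starts, a range in which peroxidase peaks also lay. The catalase gene MELO3C017024.2 on chromosome 7 had a 490 bp peak 1852 bp upstream by its edge, with its centre at 2096.5 bp. The L-ascorbate peroxidase gene MELO3C013362.2 on chromosome 1, whose product spends ascorbate to remove hydrogen peroxide and which also carries the response to ethylene, had its peak in exon 9 of 10, 4008 bp from the start. Of the superoxide dismutase genes, MELO3C015351.2 on chromosome 2 had its peak 2378 bp upstream, and the other, MELO3C004342.2 on chromosome 5, had one 2592 bp inside the gene. Both superoxide dismutase genes were therefore in the authors' promoter class, but 0 of 2 had an upstream peak, and a count of 0 allows shares of up to 84.2% here.

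The glutathione peroxidase genes, whose products reduce lipid and hydrogen peroxides with thiols, had 0 of 3 peak centres upstream, a count that allows up to 70.8%. In MELO3C015858.2 on chromosome 1, at 24856 bp the longest of the 52 genes, the peak lay 172 bp inside the start. MELO3C016951.2 on chromosome 7 had its peak in the 3' UTR, running across the gene end, and it is the only redox peak in that class. The peak of MELO3C014348.2 on chromosome 5 lay 1015 bp beyond the gene end.

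The listed glutathione genes include both steps of glutathione synthesis, but only genes with an assigned peak are in the list. Genes of these steps without a peak were not counted. Glutamate-cysteine ligase makes the precursor, and its gene MELO3C034386.2 on chromosome 10 had a distal peak 7769 bp upstream. Glutathione synthase completes the tripeptide, and its gene MELO3C015345.2 on chromosome 2 had a peak 723 bp inside the gene at 935675 to 936124. On chromosome 2 this gene and the superoxide dismutase gene MELO3C015351.2 start 39583 bp apart. MELO3C003603.2 on chromosome 4, a gamma-glutamylcyclotransferase gene of glutathione breakdown, had a 567 bp peak 59 bp past its end.

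Of the genes that use glutathione, 1 had an upstream peak, so the role stood at 1 of 7, or 14.3% (0.361 to 57.9), near the 17.8% of all GO-annotated genes. This was the glutathione transferase gene MELO3C030737.2 on chromosome 4, whose product joins glutathione to foreign or oxidised compounds, with a peak 1654 bp upstream at 33053185 to 33053494. That peak lies inside the body of the neighbouring transferase gene MELO3C009299.2 at 33052601 to 33055644, which has a 690 bp peak of its own 355 bp away. The lactoylglutathione lyase genes, which detoxify methylglyoxal, differed widely, with a peak across the gene end of MELO3C017341.2 on chromosome 2, 1278 bp from its start, and one 26127 bp upstream of MELO3C025360.2 on chromosome 6.

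S-formylglutathione hydrolase, which acts in formaldehyde removal, had a gene with 3 peaks. In MELO3C026333.2 on chromosome 8 these lay 2174 bp upstream, 1169 bp inside and 3743 bp inside, the last in intron 4 of 6. They were 499, 501 and 442 bp wide and spanned 6857 bp in all.

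In the thioredoxin and redox homeostasis role the shares were near those of the table. An upstream peak stood at 3 of 18 genes, or 16.7% (3.58 to 41.4), against 17.8%, a promoter-class peak at 9 of 18, or 50.0% (26.0 to 74.0), against 49.0%, and a distal peak at 9 of 18, or 50.0%, against 40.9%. The genes annotated as isomerases, a term of protein disulfide isomerases that pair cysteines in folding proteins, had 1 of 4 genes with an upstream peak and 3 of 4 with a promoter-class peak, numbers too small to set apart from those shares. MELO3C019722.2 on chromosome 11 had 3 peaks, at 427 bp upstream, 1356 bp inside and 7433 bp upstream, with widths of 462, 465 and 468 bp. Its near peak stood at 23585755 to 23586216 before the gene at 23586643 to 23591079. MELO3C010490.2 on chromosome 7 had a peak 1514 bp inside, MELO3C003731.2 on chromosome 4 one 2986 bp upstream, and MELO3C032011.2 on chromosome 6 one 18379 bp upstream.

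Genes with protein disulfide oxidoreductase activity, the term carried by thioredoxins and glutaredoxins, had peaks at distances from 1228 to 38157 bp. Of these 8 genes, 1 had an upstream peak, 3 a promoter-class peak and 5 a distal one, where 17.8%, 49.0% and 40.9% of all GO-annotated genes did. MELO3C011393.2 on chromosome 3 had the upstream peak, at 1419 bp. MELO3C009478.2 on chromosome 4 had a peak across its gene end, 1228 bp from the start, and MELO3C014207.2 on chromosome 8, which also carries GTPase terms, had one 2456 bp upstream. The distal peaks lay 4080 bp upstream of MELO3C021350.2, 5818 bp downstream of the start of MELO3C018372.2, 9362 bp upstream of MELO3C021979.2 and 35563 bp from the start of MELO3C028936.2. MELO3C014909.2 on chromosome 6, a gene of 384 bp, had 3 distal peaks, 11962, 18161 and 38157 bp upstream.

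The remaining genes of this role carry other terms. MELO3C019527.2 on chromosome 6, a chloroplast protein gene, had a peak 1753 bp upstream, whose centre at 1913.5 bp was the last inside the 2 kb limit. The ribonucleotide reductase gene MELO3C008017.2 on chromosome 8 had the first centre outside it, at 2005 bp. MELO3C012298.2 on chromosome 10, a thiol oxidase gene, had a peak 1916 bp inside. MELO3C010417.2 on chromosome 7 had one 883 bp past its end, and MELO3C008461.2 on chromosome 3 one 16325 bp upstream. The thioredoxin-disulfide reductase gene MELO3C023932.2 on chromosome 4, whose product recharges thioredoxin, had distal peaks 15095 and 29348 bp upstream.

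The other oxidative stress genes are defined by a response term and not by an enzyme. MELO3C016156.2 on chromosome 7, a short gene of 246 bp, had a peak 468 bp upstream at 21392931 to 21393306. MELO3C011908.2 on chromosome 10, annotated with the responses to heat, high light and hydrogen peroxide, had one across its gene end, 1065 bp from the start. MELO3C002460.2 on chromosome 12 had a promoter-class peak 2077 bp from the start, which lies past the end of the gene. The peaks of MELO3C013006.2 and MELO3C020192.2, the latter a chloroplast and leaf senescence gene, were distal, at 10391 bp upstream and 23335 bp downstream.

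More than 1 peak stood at 5 of the 52 redox genes, or 9.62% (3.20 to 21.0). That interval takes in the 14.8% of all GO-annotated genes. The 5 redox genes held 13 of the 60 peaks. At least 2 peaks in the promoter class were found at 3 of the 52 genes (MELO3C023613.2, MELO3C019722.2 and MELO3C026333.2), or 5.77% (1.21 to 15.9), an interval that takes in the 2.47% of all GO-annotated genes. The other two, MELO3C014909.2 and MELO3C023932.2, had distal peaks alone, 5885 to 19536 bp apart in the former and 13940 bp apart in the latter.

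**Figure D3:**
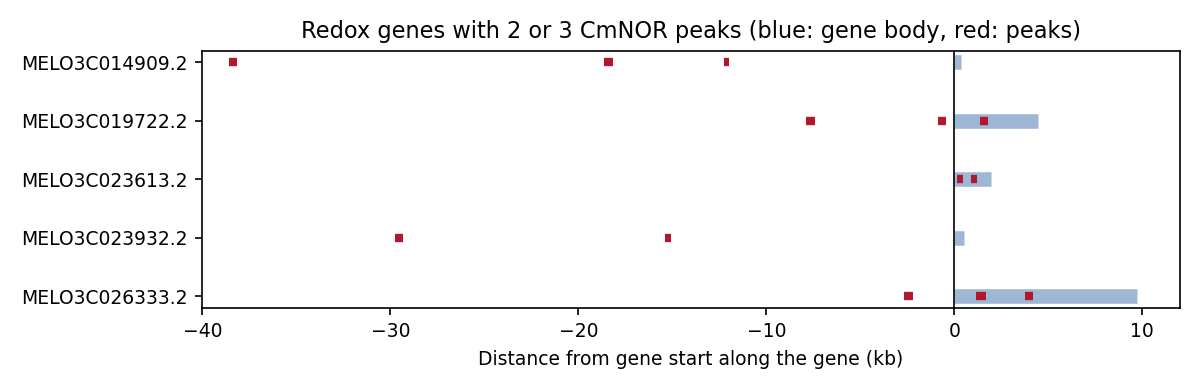
The 5 redox genes with 2 or 3 peaks, aligned at the gene start (x axis, kb along the gene, negative values upstream), with the gene body in blue and each peak in red. In MELO3C023613.2 both peaks lie inside the gene, and in MELO3C014909.2 the 3 peaks lie between 11962 and 38157 bp upstream.

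Across all roles, a larger share of redox genes than of all GO-annotated genes had a promoter-class peak and a smaller share a distal one, and both counting intervals took in the background. Each peak has 1 class and 47 of the 52 redox genes had 1 peak, so the second share largely follows from the first. A promoter-class peak stood at 32 of 52 redox genes, or 61.5% (47.0 to 74.7), and the interval takes in the 49.0% of all GO-annotated genes. A distal peak stood at 14 of 52, or 26.9% (15.6 to 41.0), with 40.9% inside the upper bound. Within 1 kb of the start on either side the redox list had 11 of 52, or 21.2%, against 22.0%, and with exon or intron peaks it had 4 of 52, or 7.69%, against 11.5%. With the upstream limit set at 1 kb the count was 6 of 52, or 11.5%, against 9.72%, and at 3 kb it was 19 of 52, or 36.5% (23.6 to 51.0), against 24.3%. The shares at 1 and 2 kb were thus near the background, and the wider gap at 3 kb comes from 8 genes with a centre between 2 and 3 kb.

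Heme-binding genes outside the redox list were set beside it, since 13 of the 52 redox genes also carry that term. These 51 genes have no peroxidase term, and 34 of them had a promoter-class peak, or 66.7% (52.1 to 79.2). Of the same 51, 9 had an upstream peak, or 17.6% (8.40 to 30.9), and 17 a distal one, or 33.3%. Within 1 kb of the start on either side, 18 of the 51 had a peak, or 35.3% (22.4 to 49.9). That share was 46.7% (21.3 to 73.4) for the 15 peroxidase genes and 22.0% for all GO-annotated genes. The median distance of the heme-binding set was 2184.5 bp (1648 to 5196), beside 2305.5 bp in the redox list. Differences between the sets were not tested.

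**Figure D4:**
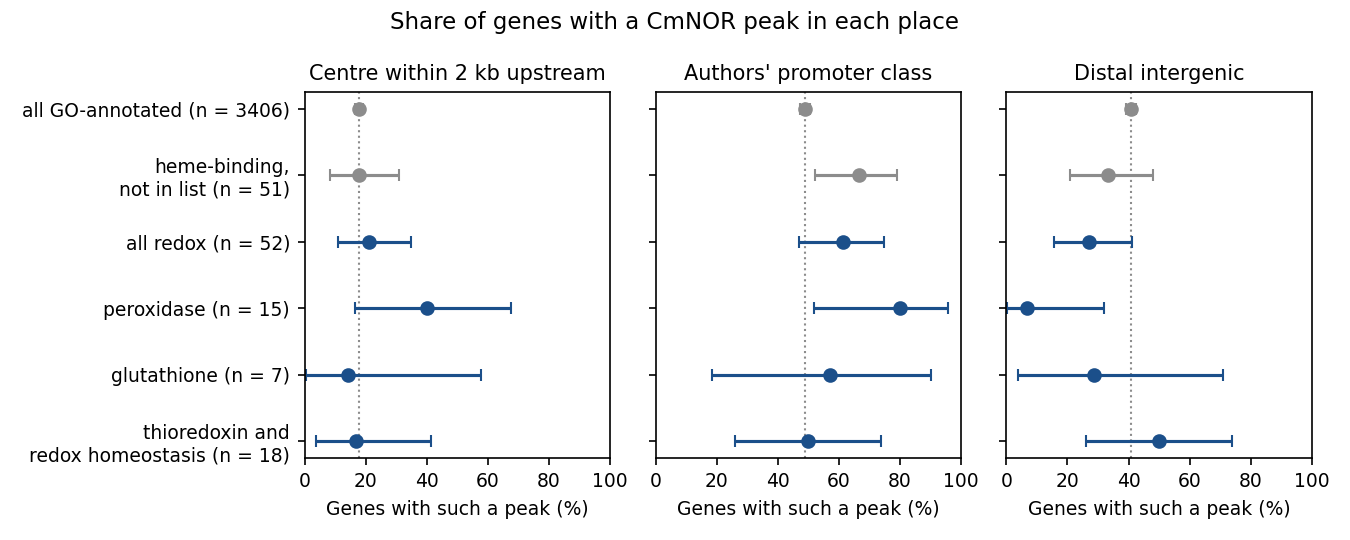
Share of genes (x axis, percent) with a peak centre within 2 kb upstream, with a peak in the authors' promoter class, or with a distal intergenic peak, for all GO-annotated genes, heme-binding genes outside the list, all redox genes and the 3 largest roles. Points are shares, bars are 95% exact intervals, and the dotted line is the share over all GO-annotated genes; the peroxidase genes stand at 40.0%, 80.0% and 6.67%.

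Beyond the keywords, the term carried by the most members was oxidation-reduction process, with 30 of 52 genes, or 57.7%. Many keywords name enzymes that carry this term as well, so its share largely follows from how the list was chosen. Heme binding was carried by 13 of the 52 genes (25.0%), metal ion binding by 15 (28.8%) and extracellular region by 8 (15.4%). Over all GO-annotated genes these terms stood at 1.88%, 4.96% and 1.12%. All 8 extracellular genes were peroxidases, and all 13 heme-binding genes carry peroxidase activity. These shares therefore also follow in part from how the list was chosen. Membrane terms were carried by 5 of 52, or 9.62%, beside 20.7% of all GO-annotated genes, and chloroplast by 2, or 3.85%, beside 2.91%. Gene length was close to that of the table, with a median of 3157 bp (2451 to 4193) beside 3336 bp (3201 to 3483).

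Chromosome 4 held 11 of the 52 redox genes, or 21.2%, while it held 10.7% of all GO-annotated genes. Of these 11, 5 were peroxidases, 3 belonged to redox homeostasis, 2 to glutathione metabolism and 1 to other oxidative stress. Chromosome 11 held 6 genes, 4 of them peroxidases, or 11.5% beside 8.28% of all GO-annotated genes. Chromosomes 9 and 12 held 1 each, or 1.92%, beside 6.02% and 7.52% of all GO-annotated genes. Taking the last listed peak as the end of each chromosome, 27 of the 60 redox peaks lay in the outer 20% of their chromosome, or 45.0% (32.1 to 58.4), beside 29.2% (27.8 to 30.7) of peaks of GO-annotated genes. Among the promoter-class peaks it was 21 of 35, or 60.0% (42.1 to 76.1), beside 42.6% (40.2 to 45.0) for promoter-class peaks of all GO-annotated genes. Among the other classes it was 6 of 25, or 24.0% (9.36 to 45.1), beside 19.0%. How genes are spread along the chromosomes was not measured, and its part in these counts was not tested.

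Peak widths at redox genes were close to those of the table. The narrowest was 304 bp and the widest 687 bp, and the median was 431 bp (376 to 462), beside 424 bp (419 to 428) for peaks of all GO-annotated genes. After the peak of MELO3C009329.2 the widest were a distal peak of MELO3C020192.2 at 639 bp and the peak past the end of MELO3C003603.2 at 567 bp. Of the peaks of GO-annotated genes, 96.0% were narrower than the first of these, 94.0% than the second and 87.2% than the third. Width is not a measure of enrichment. Within 5 kb of another listed peak lay 10 of the 60, or 16.7%, beside 17.7% of the peaks of GO-annotated genes, and in 7 of the 10 the other peak belonged to the same gene.

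**Figure D5:**
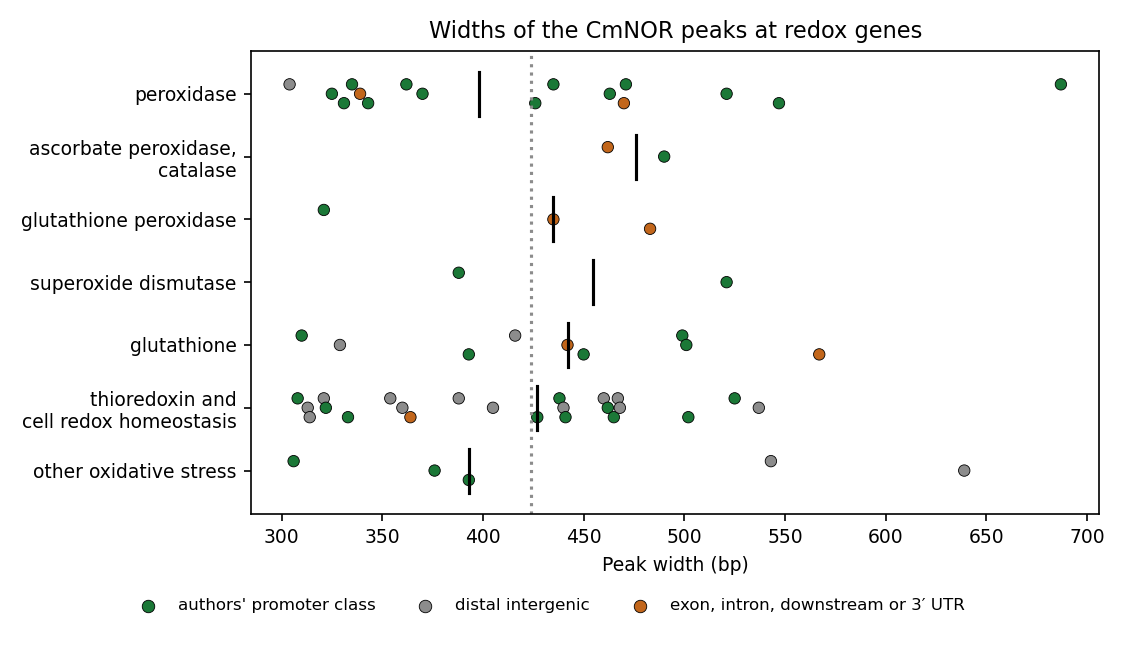
Width of each of the 60 peaks (x axis, bp) by role of the assigned gene, coloured by the authors' location class. Vertical black lines are the role medians and the dotted line is the median of 424 bp over peaks of all GO-annotated genes; widths run from 304 to 687 bp in the peroxidase role.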

How the data were processed

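The authors deposited 1 peak table with start, end, width, assigned gene, distance and location class in bp or words, per the file headers. The submitters' processing notes name MACS2 and deepTools. The aligner, thresholds, annotation and the way the libraries were combined were not given in the sources used here, so how many weak sites are listed is unknown. A PCR-amplified library version (ampDAP-seq), which loses native DNA methylation, is described in the labels' protocols without saying which libraries used it. Width and distance were recomputed exactly in 5493 of 5493 rows. Distances are from the nearest peak edge, and upstream shares use peak centres within 2 kb. Keywords were matched without regard to case, and each gene took the first matching role of 8 (7 had members). Named genes were those with an upstream peak, a peak over the start, 2 or more peaks, the 3 widest peaks, the nearest peak of each role, a neighbour within 100 kb or a centre next to the 2 kb limit. The others were named after their values were seen. Members, roles and lists were chosen with earlier results of these data known. Shares carry exact Clopper-Pearson intervals and medians exact order-statistic intervals, both at 95%. The functions for the intervals were tested on simulated data. No test was run, since no value belongs to 1 library. Work was done in Python 3.11.15 with scipy 1.17.1, numpy 2.4.6 and pandas 2.3.3, and plots with matplotlib 3.10.9.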

Additional observations from a re-analysis of the deposited data

How the results depend on the processing

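The share of redox genes with a peak centre within 2 kb upstream, 21.2%, was 36.5% at 3 kb, outside its counting interval, since 8 further genes enter. Over all GO-annotated genes this share also rose, from 17.8% at 2 kb to 24.3% at 3 kb. It stayed inside that interval at 1 kb (11.5%), with any overlap of at least 1 bp (26.9%), in peaks of at least the median width (25.9%, 7 of 27 genes) and with the 4 dropped genes kept (21.4%). For all GO-annotated genes the upstream share was 9.72% at 1 kb, 21.5% under the overlap rule and 17.0% in the wider peaks. The promoter-class share, 61.5%, was 63.0% in the wider peaks and 60.7% with the dropped genes. Over all GO-annotated genes it was 49.0%, and 48.4% in the wider peaks. The median distance ran from 2305.5 to 2508.5 bp, and the median width was 426.5 bp with the dropped genes kept. The number of genes with 2 or more peaks, 5, was 3 among peaks of at least the median width, because fewer peaks are left. Redox genes with another within 100 kb numbered 4, also at 50 kb, and 6 at 200 kb. No such count over all GO-annotated genes is given here, so these numbers cannot be called many or few. Leaving out chr0 changed none of these values, as it held 0 redox genes. No paired analysis was possible because the table has no values per library, and for the same reason no library could be left out. Missing depth, enrichment and replicate values limit all of this to where listed peaks lie.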

Other observations

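The 4 genes dropped for a defense or hormone name had peaks of the same kinds. MELO3C015830.2 on chromosome 1, annotated with the responses to oxidative stress and abscisic acid, starch metabolism and regulation of circadian rhythm, had a peak 1428 bp upstream. MELO3C014484.2 on chromosome 5 carries the same GO terms and had a distal peak 8142 bp downstream of its start, past the gene. MELO3C018077.2 on chromosome 4, a thylakoid protein gene with responses to oxidative stress, heat and high light, had a distal peak 8378 bp upstream. MELO3C015872.2 on chromosome 1, annotated with defense against oomycetes and hydrogen peroxide production, had a peak of 1155 bp, 2032 bp inside the gene, wider than the 687 bp of the widest redox peak.

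The 5 peaks inside peroxidase genes, 2 of them in MELO3C023613.2, were all narrow, from 325 to 362 bp. Each was under the 424 bp median over peaks of GO-annotated genes. The 10 peaks upstream of peroxidase genes ran from 304 to 687 bp, and 3 of the 10 were under that median. The 1021 peaks inside any GO-annotated gene had a median width of 432 bp. This contrast was seen in the data and was not tested.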
